A study of Mus musculus with 11 samples.

Results

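Thymic epithelial cells carrying 1 variant and 1 wild-type copy of Aire (WT/R249C, 5 libraries) were compared with cells carrying 2 wild-type copies (WT/WT, 3 libraries), which makes 8 of the 11 libraries of the study. The genotype of each library was taken from its title. All mice were of the NOD strain, which is prone to autoimmune diabetes, and were 4 to 8 weeks old. Cells were depleted of CD45-expressing cells with magnetic beads and sorted as EpCAM+ and CD45-, and RNA was sequenced in bulk from low-input libraries. The other 3 libraries, from mice with 2 variant copies (R249C/R249C), entered the fit and are given only beside the values they bear on. The genotype field of WT/R249C replicates 4 and 5 reads R249C/R249C and contradicts their titles, so the counts of genes, the fold changes of named genes and the list medians are also given without these 2 libraries where a result rests on them. Batch B consists of these 2 libraries and WT/WT replicates 2 and 3. Batch A holds WT/WT replicate 1, WT/R249C replicates 1, 2 and 3 and the 3 R249C/R249C libraries. The titles call the libraries biological replicates and nothing says how many mice went into each, so every p-value measures the spread between libraries.

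Aire is a transcriptional regulator of mature medullary thymic epithelial cells, where it switches on many genes that are otherwise confined to single tissues. Developing T cells that bind the resulting self peptides are deleted or diverted into the regulatory lineage. R249C lies in its SAND domain, and some missense variants of this domain act dominantly when only 1 copy carries them. The comparison asks what 1 variant copy does to the transcriptome of the sorted epithelium.

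The affected codon is shown in its coding context, with codons 239 to 259 of the transcript Aire-201 on chromosome 10, minus strand, in lower case and the codon that R249C names in capitals (GENCODE M21, build GRCm38). The codon is CGG, for arginine, and lies in exon 6 of 14. The labels give the amino acid change and not the base change.
Aire codons 239 to 259: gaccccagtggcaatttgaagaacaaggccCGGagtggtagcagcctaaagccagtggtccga

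Total counts of the 8 libraries ran from 60560348 (WT/R249C replicate 3) to 182319976 (WT/WT replicate 3). Levels are given as CPM, that is, counts put on one scale by the total of their library, and compare a gene between libraries, not genes with each other. The epithelial identity of the sort was visible in every library: Epcam, the sort marker, lay at 399 ± 44.3 CPM in WT/WT (SD, n = 3) and 488 ± 34.6 in WT/R249C (SD, n = 5), and Foxn1, Krt5 and Krt8 were present in all 8. Ptprc, which encodes CD45, was at 26.2, 13.6 and 22.7 CPM in WT/WT and at 15.2, 12.6, 0.248, 18.8 and 0.217 CPM in WT/R249C. WT/R249C replicate 3 stood apart, with a median correlation of 0.866 with the other libraries over log-scaled genes against 0.908 to 0.945 for the other 7.

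No gene passed. The quasi-likelihood test of edgeR, with genotype and batch as terms, called 0 of 26980 genes at an adjusted p under 0.05 (0%), and the smallest adjusted p was 0.815. An unadjusted p under 0.05 was reached by 940 genes (3.48%), of which 516 were higher (1.91%) and 424 lower (1.57%) in WT/R249C. Limma voom called 0 genes. DESeq2 called 275 of the same 26980 genes (1.02%), 157 higher (0.582%) and 118 lower (0.437%). Run on all 40154 genes with a count it called 775 (1.93%), 297 higher (0.74%) and 478 lower (1.19%). In 68 of the 275 the WT/WT and WT/R249C libraries did not overlap. Fold changes below are batch-adjusted log2 fold changes of WT/R249C over WT/WT from the edgeR fit, with their standard errors (SE), and the median over all genes tested was 0.02. By the sign of this fold change, 13895 of all genes tested were higher and 13085 lower. Without replicates 4 and 5, 2 fits were made: in the fit with the batch term the difference rests on WT/WT replicate 1 alone and the median of all genes was 0.28, while the fit without that term uses all 3 WT/WT libraries.

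In a description that needs no model, the 3 WT/WT and 5 WT/R249C libraries did not overlap in CPM for 791 genes (2.93%). WT/R249C was higher in 296 of them (1.1%) and lower in 495 (1.83%). Among the 103 immunoglobulin genes tested, 32 were lower without overlap and 0 were higher. An immunoglobulin gene could pass the filter on low counts through the WT/WT libraries alone, so this split was in part fixed by the filter. Without replicates 4 and 5 the counts over all genes were 1136 higher (4.21%) and 1088 lower (4.03%), and lower genes were then no longer in excess. The total of 791 became 2068, 1898 and 2615 without WT/WT replicate 1, 2 or 3, and 1760, 1213 and 1300 without WT/R249C replicate 3, 4 or 5, since fewer libraries overlap less often by construction. For the named genes, the 12 of smallest p in each direction were taken among those that did not overlap and pointed the same way in both batches, so that their separation between groups was a condition of choice and is shown as a description.

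Immunoglobulin transcripts, which B cells and above all plasma cells make, had the list median farthest from that of all genes among the lists examined. Igkc, the constant region of the kappa light chain, stood at 1610, 734 and 1863 CPM in WT/WT and at 81.3, 72.5, 283, 69.2 and 90.0 CPM in WT/R249C. All 5 heterozygous libraries lay below all 3 wild-type libraries, and the mean was 11.8-fold lower. The log2 fold change was -3.80 (SE 0.49, 95% interval -4.92 to -2.69), with an unadjusted p of 3.02e-05 and an edgeR adjusted p of 0.815. Without replicates 4 and 5 it was -3.56, within batch A -3.57 and within batch B -3.98. Igkc lay at 166, 246 and 341 CPM in the R249C/R249C libraries, which are compared with the same WT/WT libraries.

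Heavy chains followed the same order. Igha, the constant region of IgA, was at 816, 1064 and 2242 CPM in WT/WT and at 0, 62.6, 116, 2.47 and 3.37 CPM in WT/R249C, a mean 37.3-fold lower. Ighg2b, of an IgG subclass, was at 54.8, 102 and 48.3 CPM against 2.13, 0.413, 2.77, 4.92 and 7.95 CPM (18.8-fold lower, log2 fold change -4.22, SE 0.64, edgeR unadjusted p = 1.02e-04, and -5.02 without replicates 4 and 5). Jchain, which encodes the joining chain that links IgA and IgM into polymers, was at 658, 621 and 1086 CPM against 2.04, 27.9, 155, 3.78 and 0.325 CPM. None of these 3 genes overlapped between the groups. Their adjusted p was 1 in edgeR.

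Not every chain separated the groups. Ighm, the constant region of IgM, which unswitched B cells carry, was at 17.3, 28.6 and 29.0 CPM in WT/WT and at 14.1, 16.8, 10.01, 20.5 and 4.34 CPM in WT/R249C. Iglc1, of the lambda light chain, was at 783 and 711 CPM in WT/WT replicates 2 and 3 but at 2.17 CPM in replicate 1, inside the range of 0.205 to 4.61 CPM of WT/R249C. Ighg2c was at 0 in WT/WT replicate 2 and at 85.6 and 206 CPM in the other two, against at most 3.29 CPM in WT/R249C. Which chains were abundant thus differed among the wild-type libraries.

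Of the 12 constant-chain and joining-chain genes tested, of 13 listed, 11 were lower in WT/R249C. An unadjusted p under 0.05 was reached by 6, all lower (1.57% of all genes), and 5 were lower without overlap (1.83% of all genes). Summed over the list, the level was 3322, 3407 and 6229 CPM in WT/WT and 128, 187, 661, 134 and 123 CPM in WT/R249C. The sum in R249C/R249C was 411, 875 and 944 CPM. The list median was -4.58, and -2.73 without replicates 4 and 5.

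Variable and joining segments, the parts that B cells join to build the antigen-binding site, were lower in WT/R249C as well. Of 348 variable segments with a row in the table, 83 passed the filter on low counts, and 77 of these were lower and 6 higher in WT/R249C. Unadjusted p under 0.05 was reached by 33, all lower (1.57% of all genes), and 22 were lower without overlap (1.83% of all genes). A segment could pass the filter through the WT/WT libraries alone. At least 1 CPM was reached by 70, 36 and 75 segments in WT/WT and by 1, 7, 15, 2 and 4 in WT/R249C. The direction of the segments tested was thus in part fixed by the filter, and their counts cannot be weighed against the shares of all genes. Summed over all 348, the level was 899, 1305 and 2138 CPM in WT/WT and 9.09, 42.3, 156, 12.7 and 12.3 CPM in WT/R249C. At least 1 count fell on 133, 84 and 167 segments in WT/WT and on 49, 55, 42, 47 and 23 in WT/R249C, so fewer segments were seen in each heterozygous library.

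Individual segments varied widely among the wild-type libraries. Igkv6-23 was at 52.5, 56.1 and 0.592 CPM in WT/WT and had 9 counts in WT/R249C replicate 2 and none in the other 4. Ighv10-1 was at 5.51, 24.4 and 34.8 CPM against 0, 0, 0, 0.0310 and 0.0962 CPM. Igkv4-54 was at 1.76, 0.178 and 2.76 CPM in WT/WT, and a single count was seen in WT/R249C. The kappa joining segment Igkj5 was at 17.9, 7.38 and 7.39 CPM against 0.605, 0.186, 0.248, 0.580 and 0.409 CPM, and Igkj2 at 8.61, 4.13 and 8.97 CPM against 0.549, 0.675, 1.24, 0.580 and 0.541 CPM. Segments of a family are nearly alike in sequence, so the split of reads among them is uncertain, while the sums depend less on it.

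**Figure D1:**
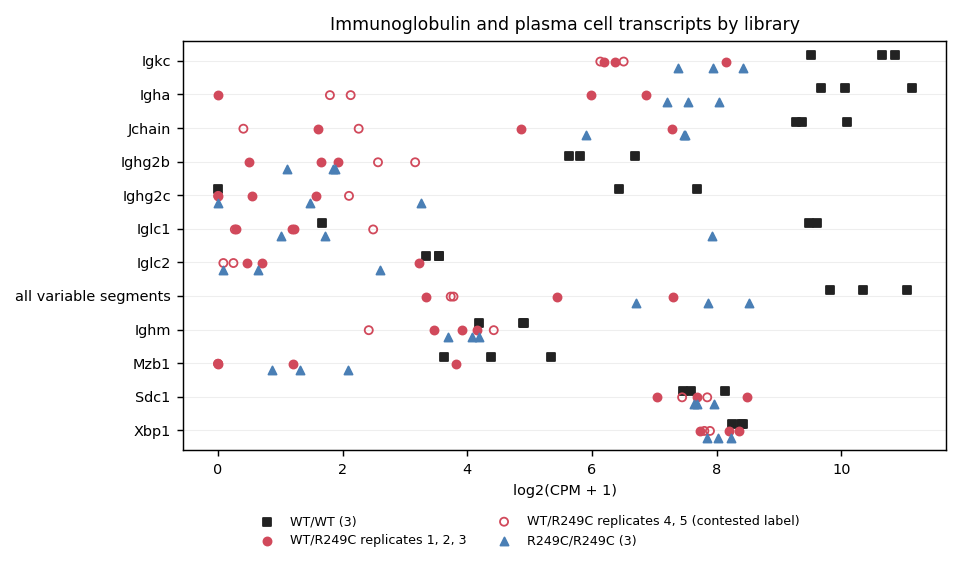
Levels of immunoglobulin and plasma cell transcripts in each library, as log2(CPM + 1) on the horizontal axis, with 1 symbol per library (squares WT/WT, filled circles WT/R249C replicates 1 to 3, open circles WT/R249C replicates 4 and 5, triangles R249C/R249C). The WT/WT squares lie to the right of every WT/R249C circle for Igkc, Igha, Jchain, Ighg2b and the summed variable segments, and the symbols mix for Ighm, Sdc1 and Xbp1.

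Markers of the cells that make these chains were lower in part. Mzb1, an endoplasmic reticulum protein of antibody-secreting cells, was at 11.3, 19.9 and 39.5 CPM in WT/WT and at 0, 1.29, 13.04, 0 and 0 CPM in WT/R249C, where replicate 3 reached into the wild-type range. Xbp1, a transcription factor of secretory cells that epithelium also expresses, was at 326 ± 19.9 against 258 ± 49.3 CPM (SD, n = 3 and 5), with an unadjusted edgeR p of 0.0269. Sdc1, a plasma cell surface protein that epithelium shares, was at 280, 175 and 193 CPM against 205, 358, 131, 230 and 173 CPM and overlapped. Of the 11 plasma cell genes, Jchain among them, 4 were higher and 7 lower, and their summed level was 1141 to 1717 CPM in WT/WT and 471 to 700 CPM in WT/R249C. Jchain alone held 621 to 1086 CPM of the sums in WT/WT and 0.325 to 155 CPM of those in WT/R249C. Without Jchain the sums of the 2 groups overlap.

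B cell markers were low in both groups. Cd79a, of the B cell receptor, was at 10.1, 6.98 and 8.44 CPM in WT/WT and at 3.16, 0.110, 0, 2.14 and 1.55 CPM in WT/R249C, without overlap. Ms4a1 was at 0 in WT/R249C replicates 3, 4 and 5. Pax5 was at 2.02 to 6.25 CPM against 0 to 3.28 CPM. Of 13 B cell genes tested, 5 were higher and 8 lower, and the summed level of 147 to 195 CPM in WT/WT lay inside the range of 95.5 to 357 CPM in WT/R249C. Whether B lineage cells that passed the sort had a part in the immunoglobulin levels was not tested. In bulk RNA, fewer cells of a type and less RNA per cell cannot be told apart.

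The next gene is from the list of tuft cells, sensory epithelial cells that also arise in the thymic medulla. Plcb2, a phospholipase of taste and tuft cell signalling that blood cells express too, was at 29.2, 53.1 and 79.7 CPM in WT/WT and at 5.27, 4.61, 7.84, 12.6 and 28.1 CPM in WT/R249C. The highest heterozygous value, in replicate 5, lay just under the lowest wild-type value. The log2 fold change was -1.98 (SE 0.33, unadjusted p = 1.85e-04, edgeR adjusted p = 1), and -2.36 without replicates 4 and 5. R249C/R249C libraries had 17.5, 11.8 and 13.6 CPM.

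Other tuft cell genes overlapped between the genotypes. Trpm5, the cation channel downstream of it, was at 9.72, 29.0 and 21.6 CPM against 11.4, 4.396, 40.9, 6.96 and 21.6 CPM. Pou2f3, the lineage-defining factor, was at 22.2, 4.88 and 22.5 CPM against 2.74, 2.57, 0, 5.10 and 24.5 CPM, and Dclk1 was at 50.3 ± 10.8 against 46.0 ± 24.0 CPM (SD, n = 3 and 5). Of 19 tuft cell genes tested, 7 were higher and 12 lower, and Plcb2 was alone in reaching an unadjusted p under 0.05. The list median was -0.17. It was 0.02 with the batch term and -0.69 without it when replicates 4 and 5 were left out.

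Further genes on the lower side encode proteins of secretion, chromatin and RNA decay. Lman2l, a lectin that helps glycoproteins leave the endoplasmic reticulum, was at 87.4, 72.4 and 80.6 CPM in WT/WT and at 47.1, 55.0, 59.8, 51.1 and 38.6 CPM in WT/R249C (log2 fold change -0.73, SE 0.15, edgeR unadjusted p = 7.01e-04). It differed by nearly the same amount in each batch, -0.74 within A and -0.73 within B. The remaining cargo receptors and coat proteins of the list of 13 did not pass an unadjusted p of 0.05, among them the paralogs Lman1 at 199 ± 67.6 against 227 ± 38.5 CPM and Lman2 at 373 ± 62.9 against 396 ± 102 CPM (SD, n = 3 and 5).

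Atad2b, a bromodomain ATPase of chromatin, was at 37.1, 40.6 and 30.0 CPM against 10.3, 9.58, 21.3, 10.7 and 14.2 CPM (log2 fold change -1.49, SE 0.32). Zfc3h1, which hands nuclear RNA to the exosome for decay, was at 86.2, 91.4 and 109 CPM against 52.8, 43.4, 62.6, 42.2 and 53.8 CPM (-0.91, SE 0.20). In both genes every WT/R249C library lay below every WT/WT library. For Zfc3h1 the R249C/R249C libraries were at 78.0, 104 and 61.8 CPM. Replicate 1 lay between the ranges of the 2 groups, replicate 2 in that of WT/WT and replicate 3 in that of WT/R249C. For Atad2b they were at 17.3, 11.4 and 16.9 CPM.

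On the higher side the smallest p belonged to Hsd3b7, a steroid dehydrogenase of bile acid synthesis that also degrades the oxysterols read by the receptor Gpr183. It was at 13.6, 7.60 and 13.1 CPM in WT/WT and at 29.7, 21.1, 40.6, 42.6 and 54.1 CPM in WT/R249C. The lowest heterozygous library thus lay above the highest wild-type library, and the 2 libraries with contested labels were the highest. The log2 fold change was 1.74 (SE 0.34, 95% interval 0.96 to 2.51, unadjusted p = 6.78e-04, edgeR adjusted p = 1). It was 1.11 without replicates 4 and 5, 1.11 within batch A and 2.27 within batch B. Hsd3b7 lay at 24.7, 31.8 and 36.9 CPM in the R249C/R249C libraries, also above all 3 WT/WT libraries.

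The other genes of its pathway were measured beside it. Ch25h, which makes the oxysterol precursor, was at 28.4, 16.7 and 16.4 CPM in WT/WT and at 44.2, 40.5, 13.6, 36.1 and 24.9 CPM in WT/R249C. Cyp7b1, the next enzyme, was at 11.2 ± 4.05 against 12.98 ± 4.04 CPM (SD, n = 3 and 5), and Gpr183 was at 0 in WT/WT replicate 1 and in WT/R249C replicate 3. Of 8 genes of oxysterol and bile acid synthesis tested, 6 were higher and 2 lower, and Hsd3b7 was alone in reaching an unadjusted p under 0.05. Their median was 0.41, and 0.17 and 0.18 without replicates 4 and 5, with and without the batch term. Cyp7a1, the rate-limiting enzyme of bile acid synthesis in liver, was at 0 in all 8 libraries.

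Of the other named genes on the higher side, Hnrnpdl, an RNA-binding splicing regulator, was at 57.2, 81.3 and 88.8 CPM in WT/WT and at 124, 101, 91.3, 137 and 137 CPM in WT/R249C (log2 fold change 0.78, SE 0.16, edgeR unadjusted p = 9.12e-04). The gap between the groups was narrow, from 88.8 to 91.3 CPM. In R249C/R249C its level was 109, 123 and 140 CPM. Rpl22l1, a ribosomal protein paralog, was at 24.2, 42.7 and 49.2 CPM against 64.4, 51.8, 66.1, 82.3 and 62.2 CPM (0.94, SE 0.22). Eny2, a subunit of transcription and mRNA export complexes, was at 51.1, 59.9 and 48.4 CPM against 73.4, 64.2, 76.6, 78.1 and 84.0 CPM (0.54, SE 0.14).

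Hnrnpdl belongs to the hnRNP family, whose members bind nascent transcripts. Of 15 genes of the family tested, 8 were higher and 7 lower, with a median of 0.02, equal to that of all genes. Hnrnpd, a close relative, was at 29.5 ± 8.70 against 28.2 ± 11.1 CPM (SD, n = 3 and 5). Hnrnpr was lower without overlap, at 243, 238 and 192 CPM against 169, 189, 105, 173 and 177 CPM, with an unadjusted edgeR p of 0.0837. Among 19 genes of the small subunit processome, which assembles ribosomes in the nucleolus, 14 were higher and 5 lower. Pdcd11 was at 4.97, 16.9 and 18.3 CPM against 16.6, 19.3, 26.3, 31.2 and 35.7 CPM (log2 fold change 1.38, edgeR unadjusted p = 0.00118), and Utp4 lay the other way (-0.52, edgeR unadjusted p = 0.0478). Both overlapped between the groups. The list median of 0.19 was 0.02 without WT/WT replicate 1.

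The other named genes on the higher side shared no list. Fads1, a desaturase of polyunsaturated fatty acids, was at 12.2, 7.42 and 9.70 CPM in WT/WT and at 22.03, 31.0, 23.5, 18.7 and 25.5 CPM in WT/R249C (log2 fold change 1.24, SE 0.30). Arntl2, a clock transcription factor, was at 6.21, 12.8 and 9.81 CPM against 16.97, 16.3, 40.0, 23.9 and 21.8 CPM (1.39, SE 0.39). Mageh1, of the MAGE family, was at 12.4 ± 1.40 against 29.6 ± 8.50 CPM (SD, n = 3 and 5; 1.23, SE 0.34). In these 3 the mean was 2.47-fold, 2.47-fold and 2.39-fold higher.

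Lmbr1, a membrane protein gene, was 2.68-fold higher in mean (log2 fold change 1.39, SE 0.36) and Glt8d1, of a glycosyltransferase family, 2.01-fold (1.09, SE 0.31). Smaller differences were seen for Wrnip1, an ATPase that binds the Werner helicase (0.82, SE 0.22), for Cops8, of the COP9 signalosome (0.61, SE 0.17), and for Dnaja2, a co-chaperone of Hsp70 (0.47, SE 0.13). All 12 genes named on the higher side had an edgeR adjusted p of 1, and the largest unadjusted p of the 24 named genes was 0.00609.

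Of these 24 genes, 7 higher and 12 lower ones were among the 275 DESeq2 calls. Their separation and their sign in both batches were conditions of choice, so values without replicates 4 and 5 are a description and no check of stability. In the fit without the batch term, the log2 fold changes of the 12 higher genes then ran from 0.42 (Eny2) to 1.40 (Hsd3b7), and those of the lower genes that are not immunoglobulins from -3.19 (Plcb2) to -0.58 (Lman2l). The difference between batches, which on the side of batch A rests on WT/WT replicate 1 alone, was tested as an interaction. It gave 0 of 25519 genes in edgeR, with 998 at an unadjusted p under 0.05 (3.91%). That 998 became 1805 without WT/R249C replicate 3 and 1872 without replicate 4.

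**Figure D2:**
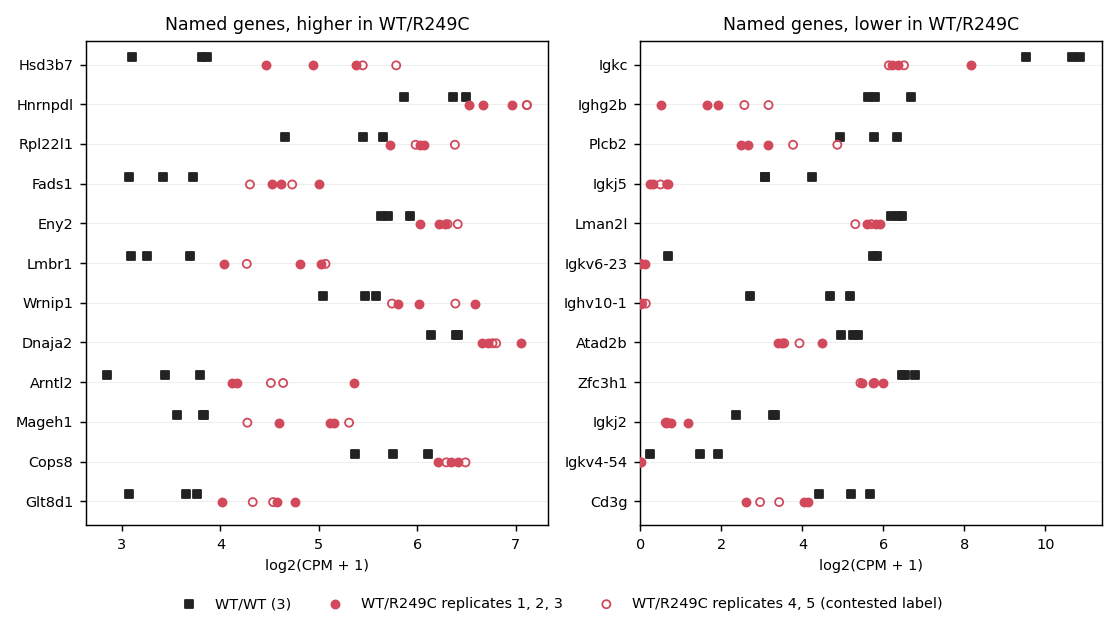
Levels of the 24 named genes in the 8 libraries, as log2(CPM + 1) on the horizontal axis, with squares for WT/WT, filled circles for WT/R249C replicates 1 to 3 and open circles for replicates 4 and 5. Squares and circles do not overlap in any row because the genes were chosen that way, and the gap is narrow for Plcb2 and Hnrnpdl.

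Aire itself was at 312, 391 and 768 CPM in WT/WT and at 633, 174, 769, 589 and 425 CPM in WT/R249C. Both groups held libraries at high and at low levels and overlapped over nearly their whole range. The log2 fold change was 0.20 (95% interval -1.0 to 1.40, unadjusted p = 0.717, edgeR adjusted p = 1), and -0.14 without WT/WT replicate 1. Without replicates 4 and 5 it was 0.69 with the batch term and 0.09 without, and it was 0.69 within batch A and -0.14 within batch B. Counts per gene do not tell the wild-type from the variant transcript. Dnmt3l, which overlaps Aire on the opposite strand and whose reads may be mixed with those of Aire if strand was not used, was at 17.8 ± 3.21 against 13.6 ± 10.6 CPM (SD, n = 3 and 5).

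The 10 tested genes nearest to Aire, 5 on each side in the order of a RefSeq gene table, were examined because they share its stretch of chromosome. An unadjusted p under 0.05 was reached by 2 of them (3.48% of all genes). Trpm2, a cation channel, was at 5.48, 14.9 and 13.3 CPM in WT/WT and at 19.4, 9.23, 47.6, 37.6 and 28.0 CPM in WT/R249C, with replicate 2 inside the wild-type range, and the other is an unnamed gene model under 1 CPM. Icosl, a costimulatory ligand, was at 294 ± 169 against 290 ± 91.8 CPM and Pfkl, a glycolytic enzyme, at 207 ± 46.2 against 234 ± 30.2 CPM (SD, n = 3 and 5).

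Genes of mature medullary epithelium, the cells that express Aire, did not separate the genotypes. Of 16 tested, 10 were higher and 6 lower, with a median of 0.17 that was -0.01 without WT/WT replicate 1. Leaving out replicates 4 and 5 gave 0.43 with the batch term and -0.07 without it. Fezf2, another regulator of tissue-restricted genes, was at 125, 300 and 426 CPM against 366, 101, 368, 396 and 243 CPM, and the costimulatory ligand Cd80 was at 11.3, 44.1 and 24.2 CPM against 32.7, 4.47, 31.1, 27.5 and 37.8 CPM. WT/WT replicate 1 and WT/R249C replicate 2 were the lowest of their groups in Aire, Fezf2 and Cd80. H2-Aa, a class II chain, was at 1639 ± 331 against 1875 ± 307 CPM (SD, n = 3 and 5).

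Tissue antigens known to need Aire were measured thinly. Of 11 tested, 8 were higher and 3 lower in the fit, 0 reached an unadjusted p under 0.05 and 0 were without overlap. The milk protein Csn2 was at 22.4, 94.4 and 104 CPM in WT/WT and at 220, 37.5, 61.6, 221 and 81.3 CPM in WT/R249C. Insulin 2, Ins2, was at 2.35, 0.713 and 2.09 CPM against 2.40, 0, 0, 3.81 and 2.31 CPM. The fitted median of 1.27 was 2.24 without replicates 4 and 5 with the batch term, 0.05 in the same libraries without that term, and 0.66 without WT/WT replicate 1, in which Csn1s1, Mup20, Fabp2, Tff3 and Sbp were at 0. Summed over the list, the groups overlapped at 37.6 to 155 CPM in WT/WT and 50.3 to 262 CPM in WT/R249C. Of 22 genes for partners of Aire in transcription, 11 were higher and 11 lower.

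Cortical epithelium, which supports the early selection of thymocytes, was the list with the most members at small p on the higher side. Of its 17 genes, 15 were higher and 2 lower, 5 reached an unadjusted p under 0.05, all higher (1.91% of all genes), and 1 was without overlap. Enpep, a peptidase, was that gene, at 18.98, 15.8 and 22.1 CPM in WT/WT and at 37.7, 34.5, 25.4, 33.5 and 40.4 CPM in WT/R249C (log2 fold change 0.90, SE 0.27, edgeR unadjusted p = 0.00868). Ctsl, the cathepsin that prepares class II ligands in the cortex, was at 295, 424 and 336 CPM against 714, 920, 299, 939 and 705 CPM (1.14, SE 0.40). All but replicate 3 lay above the wild-type range.

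The chemokine Ccl25, which draws progenitors into the thymus, was at 178, 468 and 405 CPM against 639, 400, 261, 773 and 708 CPM (log2 fold change 0.99, SE 0.36). Tbata, a regulator of epithelial growth, was at 418, 514 and 593 CPM against 681, 392, 529, 1020 and 937 CPM (0.62, SE 0.23). Krt8 was at 428, 699 and 1105 CPM against 1222, 901, 703, 1334 and 1278 CPM (0.80, SE 0.27). In Ccl25, Tbata and Krt8 the groups overlapped and replicates 4 and 5 were among the 3 highest libraries. Psmb11, the cortex-specific proteasome subunit, was at 49.9, 63.4 and 51.6 CPM against 93.5, 64.3, 17.2, 126 and 118 CPM, and Prss16, a cortical serine protease, was highest in replicate 4 at 1282 CPM. The list median was 0.50, and 0.13 without replicates 4 and 5 and without the batch term. With the batch term it was 0.23, in a fit that moved the median of all genes to 0.28.

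Thymocyte genes tended the other way. Of 19 tested, 3 were higher and 16 lower, 3 reached an unadjusted p under 0.05, all lower (1.57% of all genes), and Cd3g was lower without overlap. Cd3g, of the T cell receptor complex, was at 50.0, 20.2 and 36.0 CPM in WT/WT and at 15.5, 16.7, 5.09, 9.73 and 6.75 CPM in WT/R249C (log2 fold change -1.85, SE 0.45, edgeR unadjusted p = 0.00255). The kinase Lck was at 102, 89.3 and 79.6 CPM against 67.0, 59.5, 80.7, 49.9 and 47.8 CPM (-0.69), and the factor Bcl11b at 85.1, 39.2 and 30.2 CPM against 35.1, 28.5, 50.6, 30.2 and 32.3 CPM (-0.62). Cd3e, from the same complex as Cd3g, was at 11.5 ± 6.99 against 13.7 ± 6.67 CPM (SD, n = 3 and 5). The list median of -0.62 ranged from -1.21 without WT/R249C replicate 4 to -0.22 without replicate 5. Leaving out both gave -0.54 with the batch term and -0.37 without it. Thymocytes express CD45 and the sort was against it, and their part in these levels was not tested.

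**Figure D3:**
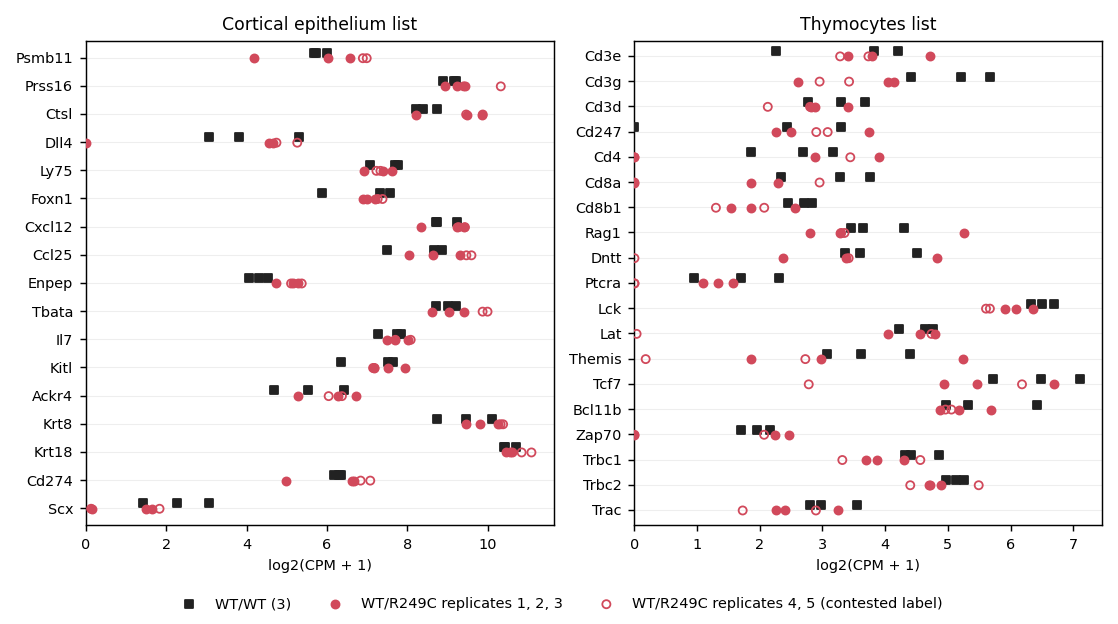
Levels of the tested cortical epithelium genes (left) and thymocyte genes (right) in the 8 libraries, as log2(CPM + 1), with squares for WT/WT and filled and open circles for WT/R249C replicates 1 to 3 and 4 to 5. Enpep on the left and Cd3g on the right are without overlap, and in most other rows the circles spread across the squares.

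Stromal genes outside the epithelium were scattered. Of 13 fibroblast genes, 3 were higher and 10 lower, and 2 reached an unadjusted p under 0.05, both lower (1.57% of all genes). Col1a2, a collagen chain, was at 76.3, 142 and 99.1 CPM in WT/WT and at 42.6, 39.6, 13.3, 14.8 and 33.9 CPM in WT/R249C, without overlap (log2 fold change -1.88, SE 0.65), and Col3a1 was at 159, 500 and 361 CPM against 54.0, 169, 151, 81.8 and 86.3 CPM (-1.60, SE 0.62). Col3a1 was at -0.41 within batch A and -2.32 within batch B, and without replicates 4 and 5 at -0.41 with the batch term and -1.46 without. The list median of -0.57 was -0.37 and -1.15 in those 2 fits. The summed level of the fibroblast list overlapped, at 2180 to 3176 CPM in WT/WT and 1371 to 3133 CPM in WT/R249C. Of 8 endothelial genes, 7 were higher and 1 lower, and 0 reached an unadjusted p under 0.05.

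Gene programs of other mimetic cells, medullary cells that take on the features of peripheral cell types, gave few small p-values. Of 10 muscle genes, 1 was higher and 9 lower, with a median of -0.87. That median was -0.35 with the batch term and -0.89 without it when replicates 4 and 5 were left out. Acta1, of skeletal muscle filaments, was lower without overlap at 33.0, 25.9 and 54.7 CPM against 24.7, 7.84, 14.003, 22.6 and 18.9 CPM, and Myl1, a myosin light chain, at 21.2, 18.5 and 44.2 CPM against 7.08, 7.76, 14.1, 17.2 and 17.5 CPM. Their unadjusted edgeR p was 0.0713 and 0.193. Ttn, the giant protein of the sarcomere, reached 0.047 with overlap.

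Of 12 keratinocyte genes, 8 were higher and 4 lower. Gata3, a transcription factor of skin and of T cells, was lower without overlap at 60.7, 34.3 and 51.0 CPM against 26.4, 20.6, 14.6, 27.1 and 19.1 CPM (log2 fold change -1.17, SE 0.30, edgeR unadjusted p = 0.00397), while the R249C/R249C libraries had 35.2, 39.1 and 56.5 CPM. Krt10, of differentiating epidermis, was at 66.2 ± 23.6 against 34.6 ± 10.5 CPM (SD, n = 3 and 5). Casp14, a caspase of the skin barrier, was at 0 in all 3 WT/WT libraries and at 4.37, 2.33, 15.6, 2.95 and 0 CPM in WT/R249C. Of 8 ionocyte genes, 1 was higher and 7 lower, and 0 reached an unadjusted p under 0.05. Ciliated, neuroendocrine and gut and liver genes had 0 members at that level in either direction.

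Antigen processing and interferon response genes were examined next. Of 18 genes of the 20S proteasome, 16 were higher and 2 lower, and Psmb4, a subunit of its core, was alone at an unadjusted p under 0.05, at 52.4, 108 and 114 CPM against 145, 114, 114, 181 and 161 CPM (log2 fold change 0.89, edgeR unadjusted p = 8.51e-04). The proteasome median was 0.28. Without replicates 4 and 5 it was 0.29 with the batch term, close to the 0.28 of all genes in that fit, and 0.03 without that term, where 9 of the 18 were higher. Of 11 class I presentation genes, 10 were higher and 1 lower, with a median of 0.33 that was 0.09 without WT/WT replicate 1, and 0.47 and 0.22 without replicates 4 and 5, with and without the batch term. B2m, the light chain of class I, was at 631, 1681 and 1800 CPM in WT/WT and at 3029, 2504, 801, 2560 and 2438 CPM in WT/R249C. The 2 low libraries, 1 of each genotype, were both in batch A.

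Of 19 interferon response genes, 13 were higher and 6 lower. Mx1, an antiviral GTPase, was higher without overlap at 7.85, 14.4 and 14.9 CPM against 17.7, 19.96, 15.1, 15.6 and 40.5 CPM (log2 fold change 1.03, SE 0.36, edgeR unadjusted p = 0.0177). The chemokine Cxcl10 was at 104 ± 33.4 against 160 ± 65.3 CPM (SD, n = 3 and 5). Of 18 cell cycle genes, 14 were higher and 4 lower, and the cyclin Ccnb1 was alone at an unadjusted p under 0.05, at 13.6, 30.7 and 24.2 CPM against 31.5, 15.3, 65.8, 55.6 and 46.3 CPM. The cell cycle median of 0.43 was 0.54 and 0.07 without replicates 4 and 5, with and without the batch term.

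**Figure D4:**
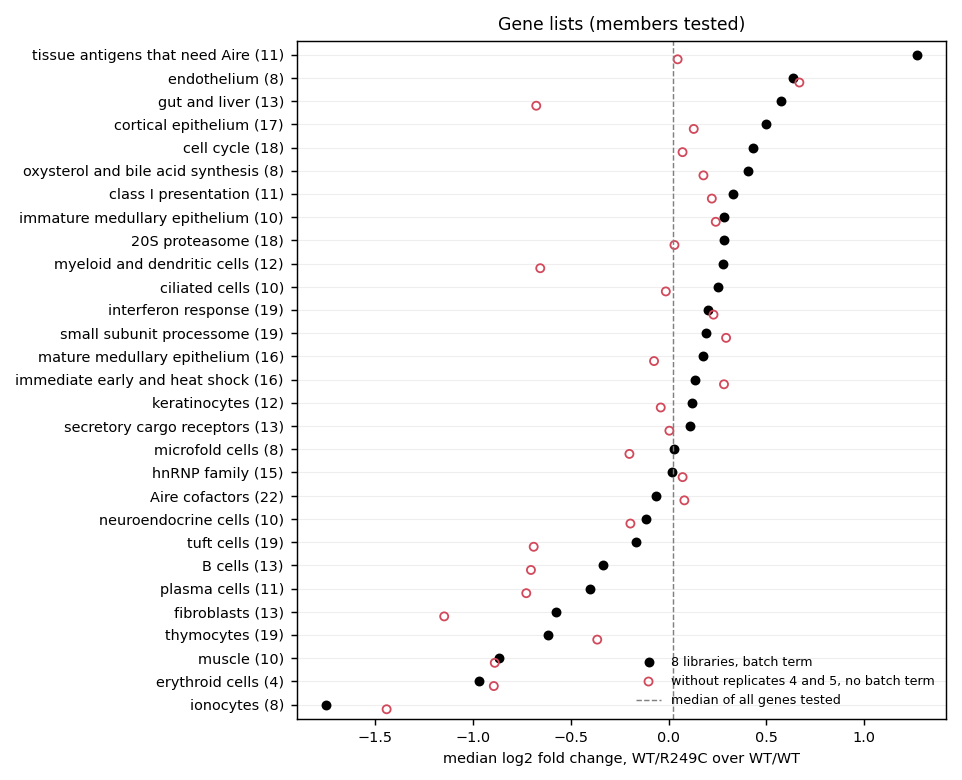
Median log2 fold change of WT/R249C over WT/WT in the gene lists other than that of immunoglobulin chains, with the number of members tested in brackets. Filled points are from the fit of all 11 libraries with the batch term, where the legend names only the 8 libraries compared. Open points are from the fit without replicates 4 and 5 and without that term. The dashed line is the median of all genes. The lists of antigens that need Aire and of gut and liver genes move the most between the 2 fits.

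What the design could resolve depended on the level of a gene. For the 2137 genes at a mean of 100 CPM or more, the median 95% interval reached 0.55 to either side on the log2 scale, and 72.3% of intervals stayed within 2-fold. For the 8829 genes from 10 to 100 CPM it reached 0.92, with 31.0% within 2-fold. Between 1 and 10 CPM it reached 3.77 and under 1 CPM 6.31. Ins2 and Ms4a1 lay in these last classes, where intervals of this width leave differences of several-fold undetectable.

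**Figure D5:**
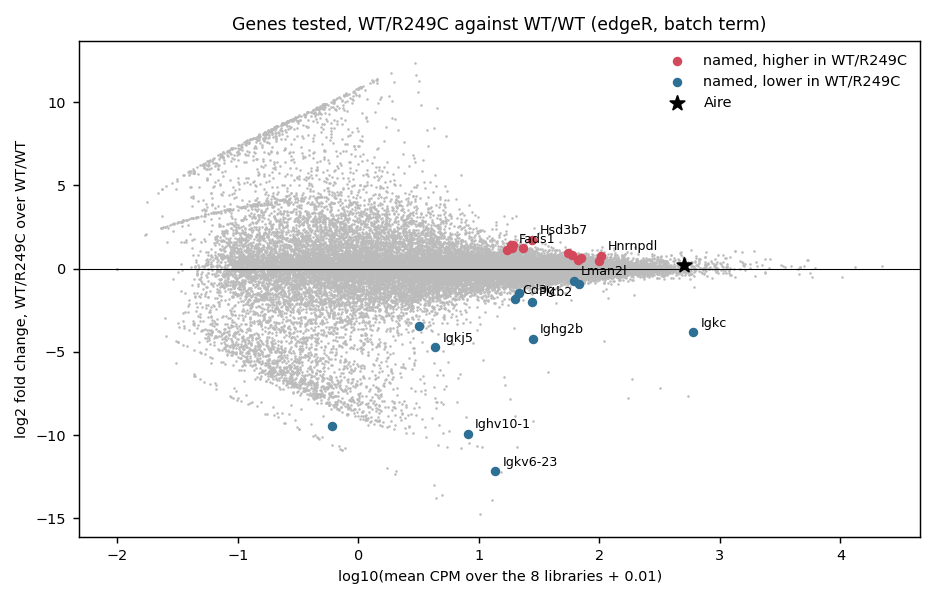
Fitted log2 fold change of WT/R249C over WT/WT against log10 of the mean CPM of the 8 libraries plus 0.01, for all genes tested (grey), the named genes (red higher, blue lower) and Aire (star). The cloud narrows from left to right, the fitted values of genes near 0 in a group are not bounded by the data, and Igkc stands below the cloud at a high level.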

How the data were processed

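Whole-number counts per gene and library were deposited by the authors as a single table, not normalized, for 56691 Ensembl genes and 11 libraries. The tools named are FastQC, HISAT2 and StringTie, with mouse build mm39, per the submitters' processing notes; their versions, the annotation, the counting step and its use of strand are not given in the sources used here. The column names of batch A carry the word trimmed, those of batch B do not. Symbols came from a GENCODE name table and were found for 52073 genes. Gene order came from a RefSeq gene table and the codon from GENCODE M21 on GRCm38. These references were used for names, order and sequence only.

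Counts as deposited went into edgeR 4.0.16 (R 4.3.3; quasi-likelihood fit, robust, TMM scaling, filterByExpr), two-sided, in 1 fit of all 11 libraries with genotype and batch as terms, and Benjamini-Hochberg adjustment over 26980 genes at a threshold of 0.05. DESeq2 1.42.0 and limma 3.58.1 (voom) were alternatives, with DESeq2 on the genes that edgeR tested added after seeing the data. Other alternatives changed scaling, filters, the batch term, the contested libraries and the replicate block, or left out each library. The code was tested on simulated data. CPM is on deposited totals without TMM, and the figures use log2(CPM + 1). Reads carry no molecular identifiers.

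The comparison, its lists and its rules were chosen with earlier results of these data known, so no list is independent evidence. Named genes are Aire, the 12 per direction of smallest unadjusted p among genes without overlap and with the same sign in both batches, its 5 tested neighbours on each side, and for a list its first members and those of smallest p. Hnrnpr, Acta1, Myl1, Cd79a, Jchain, Igha, Iglc1, Ighg2c, Mzb1, Ms4a1, B2m and the other members shown beside them were named after their values were seen. Unnamed gene models were not named.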

Additional observations from a re-analysis of the deposited data

Results flagged for a closer look

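Sums and levels within WT/R249C were screened for a library far from the other 4, by its gap to the nearest divided by the whole range (critical value 0.71); 7 of 55 were marked, where chance marks about 1 in 20. In 5 of them WT/R249C replicate 3, the shallowest library, was the one apart. It had 283 CPM of Igkc against 69.2 to 90.0 CPM in the others, 1.24 CPM of Igkj2 against 0.541 to 0.675 CPM, and 661 CPM of summed constant immunoglobulin chains against 123 to 187 CPM. The same library held 4748 CPM of summed hnRNP family transcripts against 4424 to 4515 CPM, and 8611 CPM of summed class I presentation transcripts against 12206 to 13574 CPM. In WT/R249C replicate 2, Igkv6-23 was at 0.0759 CPM and Igkv4-54 at 0.00844 CPM, while both were at 0 in the other 4 libraries. With 0 in those 4, any count at all would have marked these segments. Igkc is also part of the summed constant chains. The 7 marks are thus not independent, and their number cannot be weighed against 1 in 20.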

How the results depend on the processing

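EdgeR called 0 genes under every scaling, filter, batch setting and library left out, with 736 to 1363 genes at an unadjusted p under 0.05 when a library was left out; DESeq2 called 775 genes, and 275 on the genes that edgeR tested. For the interaction of genotype and batch, DESeq2 called 1418 genes and edgeR 0. The 791 genes without overlap were 361 at a mean CPM of at least 10 (157 higher, 204 lower), 2224 without replicates 4 and 5 (1136 higher, 1088 lower), and 1089 to 2615 when a library was left out. Higher genes made up 37.4% of the 791, from 29.9% without WT/WT replicate 1 (618 higher, 1450 lower) and 31.4% without replicate 2 to 51.3% without replicate 3 (1341 higher, 1274 lower). Aire turned to -0.025 in limma voom, -0.14 within batch B and -0.14 without WT/WT replicate 1 (0.52 without WT/WT replicate 3, 0.69 within batch A), and Ttn to 0.22 under the replicate block; the cause was not tested. Of the other fold changes and settings for 51 genes, 1160 kept direction and side of the threshold and 51 became called, all in DESeq2.

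Whether the replicate numbers of the titles pair the libraries is not known. Deviations of same-numbered libraries correlated at -0.15, 0.006 and -0.043. Replicates 2 and 3 of WT/WT and of WT/R249C are in different batches, so these values cannot settle it. The fit with the replicate block called 0 genes (1003 had an unadjusted p under 0.05), and the fit with the library number as block also 0 (726). Without replicates 4 and 5 the batch term compares with WT/WT replicate 1 alone and moved the median of all genes to 0.28 (0.40 within batch A). Depth limits genes under 10 CPM most.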
